A study of Mus musculus with 4 samples.

Results

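The Lrrc3b Atp2b2 endothelial nuclei were nuclei of mouse aortic tissue picked by a gene rule: a UMI (a molecule counted once) for at least 3 of 9 markers, for at least 1 of 5 endothelial genes (Pecam1, Vwf, Ptprb, Tek and Mecom), and for at most 1 of 11 genes of other endothelial subtypes and other cell types. The rule chose 4179 of the 107709 nuclei that had at least 300 genes and at most 10% mitochondrial UMIs. Since measured values chose these members, their marker levels are a description. Each of the 4 libraries was 1 sample of single nuclei from CA1 knock-in ApoE-/- mice, so every group carries the knock-in allele and lacks ApoE. The untreated mice had no treatment and the high-fat mice ate high-fat food. The MTZ-after mice ate high-fat food and were given methoxazolamide (MTZ) once atherosclerosis was established, and the MTZ-simultaneous mice were given it together with the food. Age, the number of animals behind a library and the cells in which the knock-in allele is active are not given in the sources used here. With 1 library per group nothing could be tested: every interval in the text is a 95% interval for counting error only, and differences between libraries were not separated from differences between animals or dissections.

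Endothelial cells line the vessel wall, sense blood flow and control vessel tone, clotting and the entry of leukocytes. In arteries they keep a Notch- and Sox17-dependent arterial programme, and the transcription factors Klf2 and Klf4 rise with laminar flow and restrain inflammation. Calcium entry and calcium-activated potassium channels in these cells drive endothelium-dependent dilation.

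Members were 1531 of 22339 nuclei (6.85%, 6.53 to 7.19) in the untreated library and 669 of 38016 (1.76%, 1.63 to 1.90) in the high-fat library. They were 873 of 28093 (3.11%, 2.91 to 3.32) in the MTZ-after library and 1106 of 19261 (5.74%, 5.42 to 6.08) in the MTZ-simultaneous library. The high-fat share was thus the lowest and the untreated share the highest, with no overlap of intervals. The rule counts genes with a UMI and so moves with depth, and the median UMIs per nucleus were 2026, 969, 828 and 1417 in the same order. After each nucleus was thinned to 500 UMIs the shares were 0.667%, 0.213%, 0.694% and 0.742%, so the high-fat share stayed the lowest while the other 3 had overlapping intervals. Between 119 and 376 barcodes were shared by a pair of libraries, and at most 2 of those were members in both.

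The label held for only part of these nuclei. UMIs of the endothelial genes were widespread: among nuclei that were neither members nor in the Lrrc3b-led cluster described next, Mecom had a UMI in 74.3%, 80.9%, 72.1% and 69.9% of nuclei of the untreated, high-fat, MTZ-after and then MTZ-simultaneous libraries, and Pecam1 in 58.5%, 60.1%, 53.5% and 60.7%. To see where members fell without the genes that chose them, 71514 candidate nuclei were clustered with all genes of the rule left out. One of 25 clusters was led by Lrrc3b, 2310002F09Rik, Nebl, Klk11, Atp2b2, Rph3al, Syt7, Crispld1, Igf2 and Samd12, and 6 of these are markers that the clustering had not seen. It held 3907 nuclei, of which 1480 (37.9%) were members.

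Those 1480 were 35.4% of all members, and the share differed between libraries. It was 51.0% (48.5 to 53.6) in the untreated, 7.32% (5.47 to 9.57) in the high-fat, 20.4% (17.8 to 23.2) in the MTZ-after and 42.7% (39.7 to 45.7) in the MTZ-simultaneous library. In the high-fat library, 37.5% of members (251) lay in a cluster led by St18, Atp6v0d2, Kcnk13, Ms4a7 and Msr1, genes known from macrophages, which held 8494 of the 28130 clustered nuclei of that library. In the untreated library 259 members lay in a cluster of 4224 out of 13097 nuclei led by Ppargc1a, Gk, Ucp1 and Cidea, genes of brown fat. In the MTZ-after library 260 lay in a cluster of 6924 out of 18205 nuclei with the steroid enzymes Cyp21a1, Hsd3b1 and Cyp11a1. These clusters were thus large parts of their libraries. A T-cell-like cluster (with Themis, Skap1, Bcl11b and Cd247 among its leading genes), which should lack this endothelial type, still passed the rule in 6.32%, 1.498%, 5.81% and 3.61% of its clustered nuclei, at median depths of 1581, 936, 820.5 and 1300 UMIs. In the Lrrc3b-led cluster the rule was passed by 46.4%, 24.1%, 22.3% and 38.6%, at 1777, 1225, 872 and 1660 UMIs. In the high-fat library the clustering thus placed most members outside the cluster that carries the label's genes, and values are given below for the rule's members and for the cluster.

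**Figure D1:**
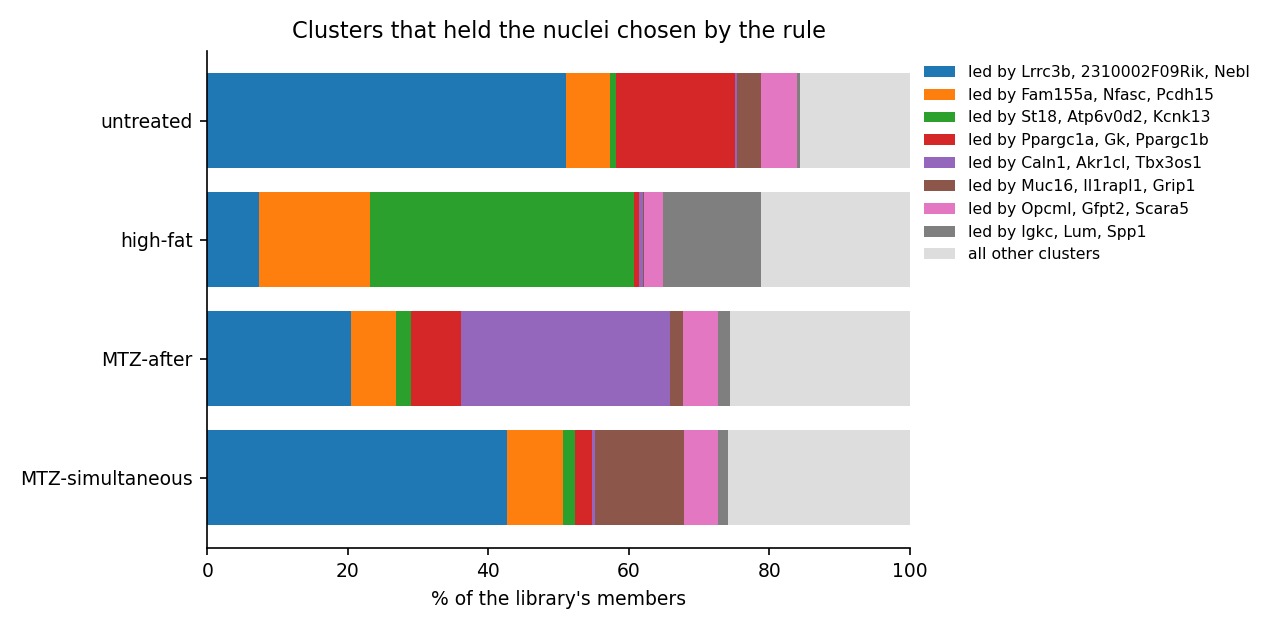
Percent of each library's members (horizontal axis) found in each cluster, with 1 bar per library and clusters named by their leading genes. The Lrrc3b-led cluster held 51.0% of the members in the untreated library and 7.32% in the high-fat library, where the St18-led cluster held 37.5%.

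Nuclei with more markers lay in the cluster more often, and they also had more UMIs. Pooled over libraries, of nuclei that met the other conditions with 2 markers, just outside the rule, 11.5% of those clustered lay in the Lrrc3b-led cluster. With 3 markers, just inside it, 25.75% did, with 4 markers 43.4%, and with 5 or more 65.4%. The libraries differed: with 3 markers the share was 41.6% in the untreated and 4.45% in the high-fat library, and with 5 or more it was 70.1% of 298 and 29.4% of 34 nuclei. Median UMIs in the untreated library were 2312 with 3 markers and 3960 with 5 or more.

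All 9 markers had their highest pooled level of 24 clusters in the Lrrc3b-led cluster, although Crispld1 was only 1.02 times the next cluster. Within single libraries Lrrc3b, Nebl and Kcnn3 ranked first there in 3 of 4, and the other markers in all 4. The cluster was picked by its share of members, which these markers chose, so the ranks of this cluster are a description. Lrrc3b (ENSMUSG00000045201, chr14:15357515-15438987 on mm10, minus strand), a membrane protein with leucine-rich repeats, had 339, 181, 217 and 282 CPM (counts scaled to a common total of UMIs) in this cluster in the untreated, high-fat, MTZ-after and then MTZ-simultaneous libraries. It had 31.8, 35.1, 53.6 and 50.4 CPM in the remaining nuclei. In every library the cluster was the higher of these. Atp2b2 (ENSMUSG00000030302, chr6:113743831-114042613, minus strand), a plasma-membrane calcium pump, had 132, 154, 99.5 and 245 CPM in the cluster and 18.2, 31.5, 30.9 and 46.2 CPM in the remaining nuclei.

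Samd12 (ENSMUSG00000058656, chr15:53453810-53902537, minus strand) was by far the most counted marker. It had 2084, 1759, 1890 and 1544 CPM in the cluster, but 310, 443, 624 and 344 CPM in the remaining nuclei. It had a UMI in 91.9% to 96.6% of members, so for most of them the rule amounted to 2 further markers. Kcnn3 (ENSMUSG00000000794, chr3:89520164-89675132, plus strand), a calcium-activated potassium channel, had 133, 88.8, 104 and 141 CPM in the cluster against 18.65, 22.6, 34.2 and 32.4 CPM in the remaining nuclei.

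The other 5 markers were Nebl (ENSMUSG00000053702, chr2:17343909-17731464, minus strand), an actin-binding protein, Crispld1 (ENSMUSG00000025776, chr1:17727045-17766344, plus strand), a secreted cysteine-rich protein, and Rph3al (ENSMUSG00000020847, chr11:75830999-75938429, minus strand), which takes part in exocytosis. Fgfr3 (ENSMUSG00000054252, chr5:33721674-33737068, plus strand) is a fibroblast growth factor receptor and Enpp6 (ENSMUSG00000038173, chr8:46986887-47096762, plus strand) a choline-releasing phosphodiesterase. Their cluster levels lay between 77.0 CPM (Fgfr3, MTZ-simultaneous) and 313 CPM (Nebl, MTZ-after), and each was above the remaining nuclei in all 4 libraries. Nebl stood out in the MTZ-after library, where it was 2.58 times the high-fat level of the cluster (1.85 to 3.67). The remaining nuclei held 64.2 CPM of Nebl in that library and 32.9 CPM in the high-fat library.

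**Figure D2:**
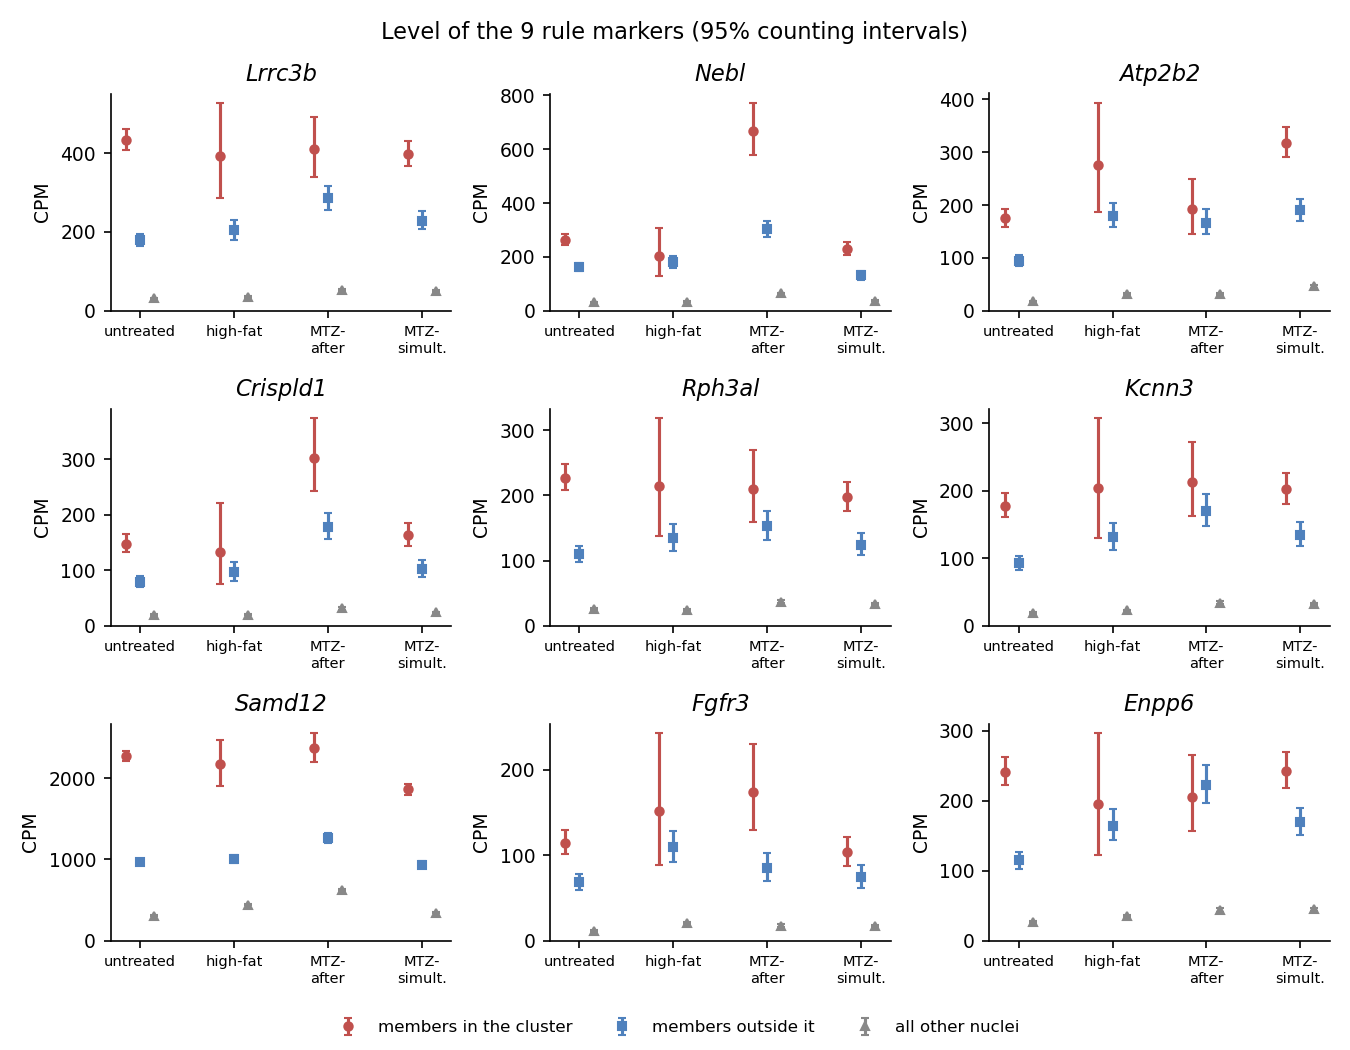
CPM of the 9 markers (vertical axes from 0) by library for members inside the Lrrc3b-led cluster, members outside it and all nuclei that were in neither, with 95% counting intervals. Members outside the cluster were above the remaining nuclei because the rule chose them on these genes, and 8 of 9 markers were highest in members inside the cluster in all 4 libraries, the exception being Enpp6 in the MTZ-after library; in the high-fat library most of these intervals overlap those of members outside it.

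The cluster carried endothelial genes, with arterial and venous ones among them. Pecam1, an endothelial junction protein, had 3082, 2961, 2890 and 2916 CPM there in the untreated, high-fat, MTZ-after and then MTZ-simultaneous libraries, against 610, 978, 974 and 868 CPM in the remaining nuclei. Pecam1 was among the genes that chose the nuclei to be clustered, so part of this difference was built in. Nos3, the endothelial nitric oxide synthase, had 540.5, 565.5, 429 and 447 CPM, against 109, 181, 134 and 132 CPM. Of 20 general endothelial genes, 17 to 19 were higher in the cluster than in the remaining nuclei, depending on the library, and of 20 arterial genes 17 to 19 were. Of 11 venous genes 6 or 7 were higher. The venous genes summed to 4907, 4678, 3768 and 4454 CPM in the cluster and 1680, 2742, 2492 and 2548 CPM in the remaining nuclei.

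A neighbouring cluster, led by Fam155a, Nfasc, Pcdh15, Frmd5 and Sele and with the highest Ddah1 of all clusters (here the Ddah1-rich cluster), also carried arterial genes. The 20 arterial genes summed to 5573, 4446, 5533 and 4041 CPM there, against 4494, 4201, 4675 and 3696 CPM in the Lrrc3b-led cluster. In the same order of libraries, 11, 11, 11 and 12 of these 20 genes were higher in the Lrrc3b-led cluster. The venous genes summed to 6421, 5456, 5586 and 6434 CPM in the Ddah1-rich cluster. Bmx, an arterial tyrosine kinase, had 704, 637, 601 and 735 CPM in the Lrrc3b-led cluster and 624, 527, 590.4 and 585 CPM in the Ddah1-rich cluster. Gja5, an arterial gap-junction protein, had 345, 261, 331 and 285 CPM against 335, 298, 309 and 244 CPM, so both clusters held similar levels, although the Bmx intervals of the clusters did not overlap in 3 libraries and the Gja5 intervals in 1. Vegfc, a growth factor for lymphatic vessels, differed more and had 476, 296, 476 and 388 CPM in the Lrrc3b-led cluster and 183, 118, 231 and 176 CPM in the Ddah1-rich cluster, with no overlap of intervals in any library. Plvap, a protein of fenestrated and venous endothelium, went the other way, with 47.3, 59.2, 34.7 and 55.2 CPM against 225, 104, 106 and 144 CPM.

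Genes outside the rule were ranked by their lowest ratio over the other endothelial-led clusters (the Ddah1-rich, an Adarb2-led and a Btnl9-led capillary cluster) in the libraries that allowed it. Of 8693 genes, 9 were at least 2-fold higher in all 9 comparisons; the clustering used these nuclei, so this is a description. They were the kallikreins Klk11 and Klk10, the basement-membrane collagen chain Col4a4, the growth factor Igf2, the integrin ligand Npnt, the glutamate receptor subunit Grin3a, and Plekha6, Pip5k1b and Stk32b. Klk11 (chr7:43774604-43779263, plus strand) had 36.1, 50.3, 57.0 and 33.0 CPM in the cluster and 2.14, 3.99, 6.15 and 6.01 CPM in the Ddah1-rich cluster. Klk10, its neighbour on chromosome 7 (chr7:43781035-43785410, plus strand), had 29.8, 29.6, 54.8 and 27.8 CPM against 5.80, 3.59, 9.22 and 9.35 CPM.

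Col4a4 (chr1:82448423-82586849, minus strand) had 216, 136, 170.0 and 164 CPM in the cluster and 15.6, 25.9, 36.3 and 32.0 CPM in the Ddah1-rich cluster. Col4a3, which lies beside it on the plus strand (chr1:82586921-82722059) and encodes a partner chain of the same collagen, had 125, 133, 90.6 and 80.5 CPM against 11.6, 17.95, 30.1 and 14.7 CPM. Both chains were higher in the cluster in each library. Emcn, a capillary and venous sialomucin, was lower, with 109, 136, 144 and 129 CPM against 326, 243, 237 and 377 CPM, and so was the metalloprotease gene Tll1.

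The rule's members set against 2 rule-based endothelial sets gave a smaller contrast. Only 4 of 10077 genes (Gm28153, Klk10, Adra2a and Gm830) were at least 2-fold higher in members than in both the 1468 Ddah1-type and the 2692 capillary-type nuclei in every library, and none was 2-fold lower. Some of these ratios rested on few UMIs. Klk10 had 0 CPM in untreated Ddah1-type nuclei, where 0 counts were replaced by 3. Gm28153 had 1.04 CPM in MTZ-simultaneous Ddah1-type and Adra2a 1.29 CPM in high-fat capillary-type nuclei. Adra2a, an alpha-2 adrenergic receptor, had 24.2, 6.99, 14.0 and 21.6 CPM in members. Over 78 groups of a cluster in a library, the genes whose level followed the summed markers most closely were Rasgrf2 (Pearson's r 0.847), Podxl (0.836), Klf7 (0.828), Gata2 (0.8195), Fam135a (0.804), Myrip (0.800), Fgd5 (0.799), Unc13b (0.795), Jcad (0.795) and Adgrl4 (0.794). The groups included clusters led by macrophage, brown fat and adrenal genes. The coefficients thus do not separate genes of the Lrrc3b-led cluster from genes shared by endothelial clusters. Groups of 1 library share depth and free RNA, so these coefficients describe the libraries and have no test.

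At Leiden resolution 1, used here, the share of the cluster differed between libraries more than that of the members. It made up 7.53% (7.19 to 7.89) of the nuclei that passed in the untreated library, 0.534% (0.463 to 0.613) in the high-fat, 2.84% (2.65 to 3.05) in the MTZ-after and 6.34% (6.004 to 6.70) in the MTZ-simultaneous library. The high-fat share was 0.0709 times the untreated one (0.0610 to 0.0820), the MTZ-after share 5.33 times the high-fat one (4.56 to 6.24) and the MTZ-simultaneous share 11.9 times it (10.2 to 13.9). For the members the same ratios were 0.257 (0.234 to 0.281), 1.77 (1.60 to 1.96) and 3.26 (2.96 to 3.60). The last 2 ratios of each set share the high-fat library. The cluster's size moved with the clustering settings, which the intervals do not cover. At Leiden resolution 0.5 it held 2266, 1132, 1143 and 1887 nuclei in the same order of libraries, against 1683, 203, 799 and 1222 here. With the sizes at resolution 0.5, the cluster's share did not differ clearly more between libraries than that of the members. Of the 1132 high-fat nuclei, 160 lay in the cluster used here. At resolution 2 the MTZ-simultaneous cluster held 607 nuclei.

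Within the 4 endothelial-led clusters the Lrrc3b-led cluster was 55.5% (53.7 to 57.3) of 3032 nuclei in the untreated and 5.48% (4.77 to 6.26) of 3706 in the high-fat library. It was 32.9% (31.0 to 34.8) of 2430 in the MTZ-after and 52.0% (49.96 to 54.04) of 2350 in the MTZ-simultaneous library. The Ddah1-rich cluster held 719, 3445, 1223 and 962 nuclei in these libraries, so in the high-fat library it was the larger by far. Igf2, 1 of the cluster's leading genes, also differed between libraries, with 24.8, 8.88, 66.0 and 29.8 CPM in the cluster. The high-fat value rested on only 3 UMIs. The remaining nuclei had 3.90, 2.55, 7.14 and 5.82 CPM of Igf2, in the same order of libraries. How far differences in such genes set the cluster's size was not tested.

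**Figure D3:**
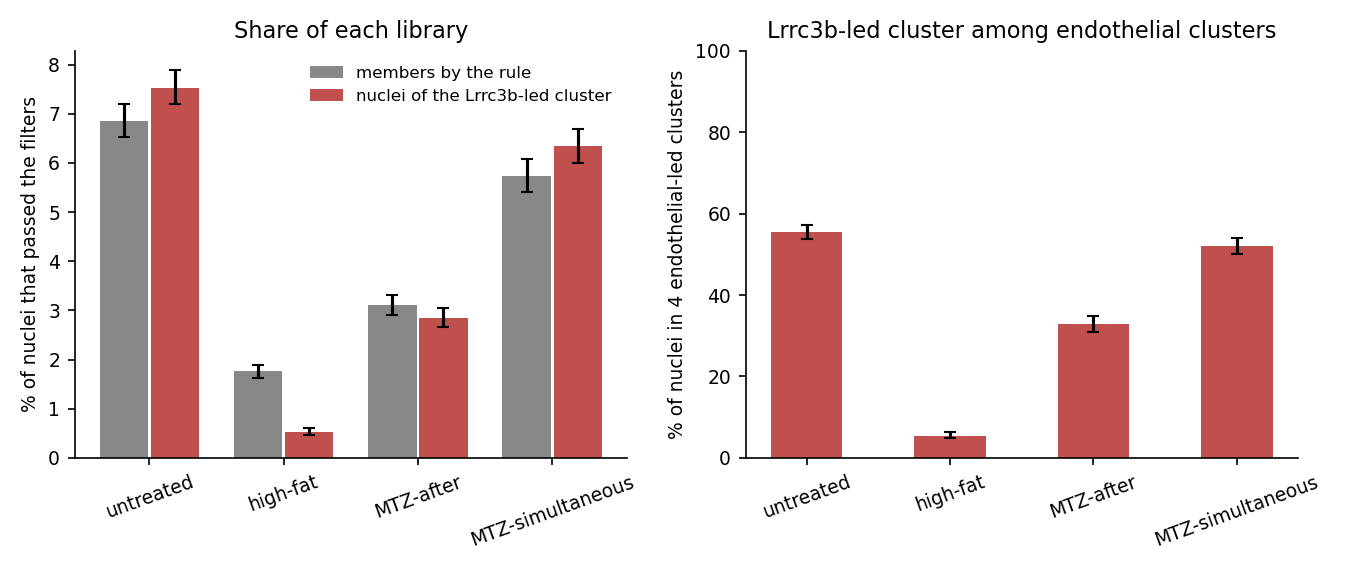
Left, percent of nuclei that passed the filters (vertical axis) for members and for the Lrrc3b-led cluster in each library; right, the cluster as a percent of the nuclei in 4 endothelial-led clusters; bars start at 0 and error bars are 95% counting intervals. The high-fat library is lowest in each panel, with 0.534% of nuclei and 5.48% of endothelial-cluster nuclei in the Lrrc3b-led cluster.

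Between the high-fat and the untreated library, macrophage genes were higher and brown fat genes lower in the high-fat members. A gene was called when the ratio of its CPM was at least 2 and it had at least 30 counts in the higher library: 522 of 11126 genes (4.69%) were higher and 464 (4.17%) lower, 8.86% in all. The larger side depended on the settings: there were 177 higher and 636 lower genes with at least 4 markers, 258 and 360 with no excluded gene allowed, and 437 and 578 with TMM scaling factors. The members held 1431391 UMIs in the high-fat and 5367508 in the untreated library. With a minimum of 30 counts expected at the smaller depth, 522 of 7696 genes (6.78%) were higher and 181 (2.35%) lower. All 10 measured macrophage genes were higher, with a median log2 ratio of 1.73 against 0.07 over all genes, and 7 of 9 were called. The named genes on the higher side were Olfr111, Mpeg1, Tmem178, Lyz2, Tyrobp, Cd22, Pax5 and Slc7a11. Lyz2, the lysozyme of macrophages, had 388 CPM in high-fat and 76.0 CPM in untreated members (ratio 5.10, 4.48 to 5.81), but its ratio was 1.34 in the cluster. The summed macrophage markers were 1957 CPM in high-fat members outside the cluster and 643 CPM in untreated ones, 492 and 144 CPM in the cluster, and 2235 and 1102 CPM in the remaining nuclei; none was at 0 in the cluster. Their part in the members' differences was not tested.

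On the lower side the genes named by rank included Nr4a1, Adamts1, Btnl9, Pkhd1l1, Pthlh, Klf2 and Shisa9. All 8 brown adipocyte genes were lower, with a median of -2.06. They summed to 284 CPM in high-fat and 1758 CPM in untreated members outside the cluster, and to 107 and 339 CPM in the cluster. The remaining nuclei held 346 and 3027 CPM, and the part of this RNA in the differences was not tested.

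In the cluster the same contrast was read with a minimum of 30 counts expected at the depth of the smaller library, because the cluster held 337742 UMIs in the high-fat and 3957167 in the untreated library. Of 2818 genes 43 (1.53%) were higher and 20 (0.71%) lower, 2.24% in all. Several interferon-inducible GTPases were among the higher genes, and flow-responsive and immediate early genes among the lower ones. All 10 macrophage genes were higher too, with a median log2 ratio of 1.82, and both that met the minimum were called. Iigp1 had 403 CPM (338 to 476) in the high-fat and 164 CPM (152 to 177) in the untreated library, a ratio of 2.46 (2.03 to 2.96). Gbp4 had 308 CPM and 113 CPM, a ratio of 2.72 (2.18 to 3.37). Of 12 measured interferon genes 10 were higher, with a median log2 ratio of 0.94, and all 4 that met the minimum were called, Oasl2, Gbp4 and Iigp1 among them. The other named genes on this side were Gbp6, Gm4951, Samhd1, Trafd1 and Gbp5. The remaining nuclei shifted the same way, with a ratio of 3.69 for Iigp1 and 3.47 for Gbp4, and a median of 0.76 over 13 interferon genes.

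Klf2 had 915 CPM (886 to 946) in the untreated and 420 CPM (354 to 496) in the high-fat library, a ratio of 0.459 (0.386 to 0.543). The same ratio was 0.332 in the Ddah1-rich cluster and 0.686 in the remaining nuclei, so the level was lower in all of them. Klf4 had 437 CPM and 261 CPM. Of 12 flow-response genes 8 were lower, with a median of -0.62, and 2 of 7 were called, Klf2 and Txnip, an inhibitor of thioredoxin.

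All 15 immediate early genes, which cells induce within minutes of a stimulus, were lower, with a median of -0.90, and 5 of 10 were called (Jun, Egr3, Nr4a1, Nr4a2 and Btg2). Nr4a1, a nuclear receptor, had 94.7 CPM in the high-fat and 272 CPM in the untreated library. Its ratio of 0.348 (0.237 to 0.494) was near the 0.313 of the remaining nuclei. Adamts1, a matrix protease, had 109.6 and 383 CPM, a ratio of 0.286 (0.201 to 0.396) against 0.506 in the remaining nuclei. Immediate early genes also respond to tissue handling, whose part was not tested.

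Shisa9, a membrane protein known as a glutamate receptor partner, differed from these. In the cluster it had 511 CPM (489 to 534) in the untreated, 186.5 CPM (143 to 239) in the high-fat, 268 CPM (236 to 305) in the MTZ-after and 353 CPM (332 to 376) in the MTZ-simultaneous library. The high-fat level was 0.365 times the untreated one (0.279 to 0.469). In the Ddah1-rich cluster the ratio was 1.62 and in the remaining nuclei 1.23, so the high-fat level was lower in the Lrrc3b-led cluster and higher in both other sets. Among matrix genes 19 of 25 were higher with a median of 0.40, and 3 of 16 were called: Col1a1 (ratio 3.72), Col3a1 (2.003) and Thbs1 (3.25). Col1a1 is a fibroblast collagen, and the fibroblast markers summed to 903 CPM in the high-fat and 568 CPM in the untreated cluster.

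**Figure D4:**
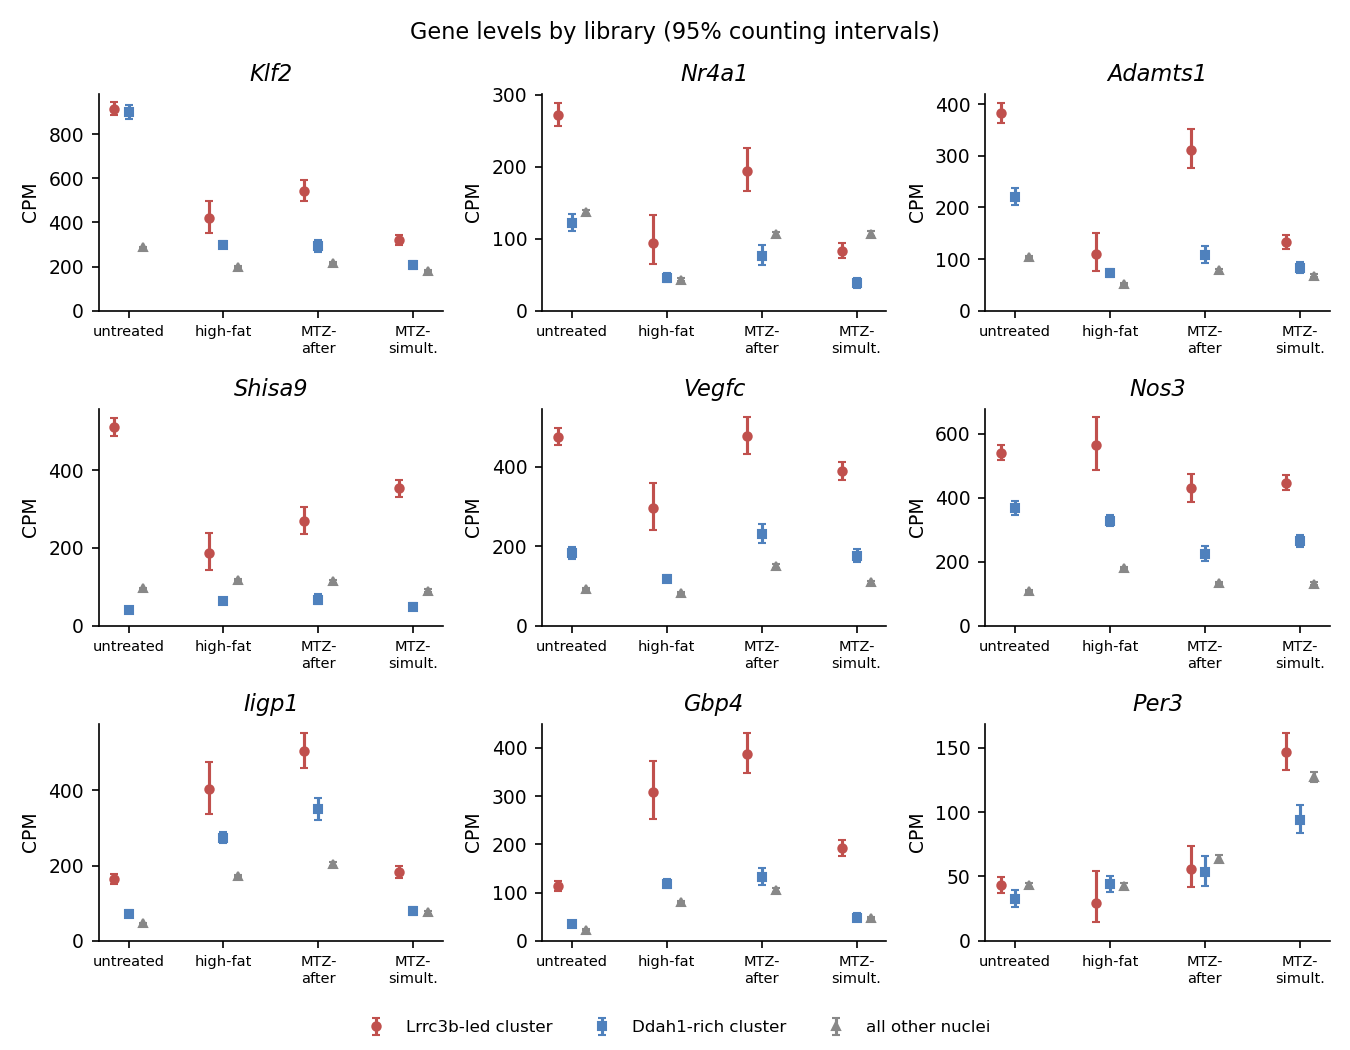
CPM of 9 genes (vertical axes from 0) by library in the Lrrc3b-led cluster, the Ddah1-rich cluster and the nuclei that were neither members nor in the Lrrc3b-led cluster, with 95% counting intervals; the last set includes nuclei of the Ddah1-rich cluster. Of the 3 sets plotted, Shisa9 is lower in the high-fat than in the untreated library in the Lrrc3b-led cluster only, whereas Klf2, Nr4a1 and Adamts1 are lower, and Iigp1 and Gbp4 higher, in all 3 sets.

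Between the MTZ-after and the high-fat library, genes of the adrenal cortex were higher in MTZ-after members. In all, 465 of 8169 genes (5.69%) were higher and 273 (3.34%) lower, 9.03% in all. All 7 measured genes of the adrenal cortex were higher, with a median log2 ratio of 4.39 against 0.01 over all genes. They summed to 317 CPM in MTZ-after and 25.02 CPM in high-fat members outside the cluster, to 135 and 11.8 CPM in the cluster, where 7 of 8 were at 0 in the high-fat library, and to 357 and 36.4 CPM in the remaining nuclei. The named higher genes were Kcnd2, Chgb, 9630002D21Rik, Ralyl, Grm7, Ttn, Muc16 and Alpl. In this order, high-fat members held only 4, 0, 4, 1, 3, 3, 2 and 1 UMIs of them. The named lower genes were Lyz2, Mpeg1, Olfr111, Epb41l3, Tyrobp, Zbtb17, Plekho1 and Dolpp1. The part of the adrenal and macrophage RNA in these differences was not tested.

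In the cluster 87 of 2931 genes (2.97%) were higher in the MTZ-after library and 17 (0.58%) lower, 3.55% in all. Of 15 immediate early genes 14 were higher, with a median of 1.07 against 0.05 over all genes, and 7 of 11 were called. Fosb, a subunit of the AP-1 transcription factor, had 159 CPM in the MTZ-after and 26.65 CPM in the high-fat library, a ratio of 5.96 (3.05 to 13.3). Fos had 371 and 133 CPM, a ratio of 2.79 (2.04 to 3.90), and Adamts1 312 and 109.6 CPM, a ratio of 2.85 (2.02 to 4.13). The remaining nuclei had ratios of 3.37 for Fosb, 1.63 for Fos and 1.49 for Adamts1, and a median of 0.40 over the 15 genes.

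Other genes called higher in the cluster were the named A430090L17Rik, Gm15738, Nr4a2, Adamts9 and Gm35188, the arterial genes Sema3g (272 against 101 CPM) and Dkk2 (239 against 97.7 CPM), and the fibroblast growth factor receptor Fgfr2 (331 against 142 CPM). In the remaining nuclei Fgfr2 had 404.5 against 206 CPM and Sema3g 46.0 against 38.5 CPM. The whole list of 20 arterial genes differed less, with a sum of 4675 against 4201 CPM in the cluster. Gpc6, a cell-surface proteoglycan, was lower at 560.3 CPM against 1371 CPM, a ratio of 0.409 (0.359 to 0.465), with 0.813 in the remaining nuclei. The other lower genes named by rank were Shroom3, Nhs, Lhfp, Cacnb4, Ccdc6, Cmah and Smc4. Klf2 had 542 CPM in the MTZ-after and 420 CPM in the high-fat library, and Iigp1 503 and 403 CPM; neither was called.

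Between the MTZ-simultaneous and the high-fat library, 501 of 10355 genes (4.84%) were higher in members and 394 (3.8%) lower, 8.64% in all. The members held 3287296 UMIs in the MTZ-simultaneous and 1431391 in the high-fat library, and the larger side depended on the count minimum. With the minimum expected at the smaller depth, 223 of 7960 genes (2.8%) were higher in members and 394 (4.95%) lower. All 8 measured mesothelial genes were higher, with a median log2 ratio of 4.25 against 0.05 over all genes, and all 10 macrophage genes were lower, with a median of -1.77. The mesothelial genes summed to 376 CPM in MTZ-simultaneous and 14.4 CPM in high-fat members outside the cluster, to 116 and 14.8 CPM in the cluster, where 8 of 10 were at 0 in the high-fat library, and to 430 and 20.4 CPM in the remaining nuclei. Their part in the members' differences was not tested. The named genes were Pkhd1l1, Dbp, Gm13713, Pdzrn4, Flrt1, Cfap54, Igf2 and D5Ertd615e on the higher side and Tmem178, Olfr111, Arntl, Epb41l3, Lyz2, Mpeg1, Hspa1b and Fgf13 on the lower side.

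In the cluster 22 of 2864 genes (0.768%) were higher and 24 (0.838%) lower, 1.61% in all. Per3, a repressor of the circadian clock, had 147 CPM in the MTZ-simultaneous and 29.6 CPM in the high-fat library, a ratio of 4.96 (2.67 to 10.4), and Tef, a transcription factor under clock control, had 284 and 133 CPM. Arntl, an activator of the clock, had 12.5 and 53.3 CPM but fell under the count minimum. The remaining nuclei had 127 and 42.7 CPM of Per3 and 23.5 and 58.2 CPM of Arntl; collection times are not given in the sources used here.

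Nr3c2, the mineralocorticoid receptor, had 814 and 397 CPM in the cluster, a ratio of 2.05 (1.72 to 2.46), with 2.01 in the remaining nuclei. Plat, the tissue plasminogen activator, had 107 and 44.4 CPM, and the other higher named genes were Mettl7a1, B630019A10Rik, Pced1b and Ifitm3. Nrp1, a co-receptor for VEGF, was lower at 307 against 696 CPM, a ratio of 0.441 (0.381 to 0.511), with 0.710 in the remaining nuclei and 0.812 in the Ddah1-rich cluster. Iigp1 had 181 against 403 CPM (ratio 0.451, 0.373 to 0.548), and Gbp6 and Gm4951 were also lower. The Iigp1, Gbp6 and Gm4951 ratios were 0.437, 0.478 and 0.561 in the remaining nuclei and 0.286, 0.333 and 0.397 in the Ddah1-rich cluster, so these genes were lower there too. Lhfp, Chka, Nhs and Cacnb4 were the other lower genes named by rank. Over 11 interferon genes 9 were lower, with a median of -0.40, and over 15 immediate early genes the median was -0.08. Icam1, a leukocyte adhesion receptor, had 62.5 CPM in the MTZ-simultaneous and 136 CPM in the high-fat library, a ratio of 0.459. As a list, 15 genes of adhesion and inflammation summed to similar levels in the cluster, 1665 and 1694 CPM. They summed to 1129 and 1105 CPM in the remaining nuclei.

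Car1 (ENSMUSG00000027556), the mouse gene of carbonic anhydrase 1, had 241 CPM (226 to 257) in the cluster in the untreated library, 148 CPM (110 to 195) in the high-fat, 120 CPM (98.1 to 145) in the MTZ-after and 209 CPM (192 to 226) in the MTZ-simultaneous library. The remaining nuclei had 118, 85.5, 60.9 and 145 CPM, so the cluster was higher in each library. The labels do not say how the knock-in allele was built, so these counts do not check it. Apoe had 13.9, 20.7, 19.01 and 14.6 CPM in the cluster; reads from outside a disrupted part of a gene check nothing.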

How the data were processed

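Single-nucleus libraries were made with the 10x 3' kit version 3.1, per the labels' protocols. The deposited files hold whole-number UMI counts per gene and barcode, which the authors made with Cell Ranger 7.0.1, per the file headers; STAR and mm10 are named in the submitters' processing notes, and whether intronic reads were counted is not given in the sources used here. Total counts were 69201159, 50358151, 31517272 and 37962370 UMIs in the untreated, high-fat, MTZ-after and then MTZ-simultaneous libraries. Gene positions are from GENCODE vM21 for 99.8% of 32285 gene identifiers.

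The members and gene lists were chosen with earlier results of these data known. Members met the rule after the nucleus filter. Members and all nuclei with at least 2 endothelial genes and at most 1 of 6 genes of other lineages were clustered without the rule's genes (scanpy 1.11.5, 2000 variable genes, 30 components, 20 neighbours, Leiden resolution 1, leidenalg 0.10.2); the cluster with at least 20% members was used. That cluster and the equal-depth minimum were chosen after seeing the data. UMIs were summed per library and set, given as CPM, and compared as ratios with exact conditional intervals; CPM has exact Poisson and shares exact Clopper-Pearson intervals. List medians use log2 of CPM plus a pseudocount of 1. The code that computes the ratios and calls was tested on simulated data with known changes. Named genes were the rule's genes, 20 higher and 10 lower leading genes by lowest or highest ratio with at least 100 counts, 8 called genes per direction and contrast by the interval bound nearest 1 whose CPM in the higher library was at least that of the other nuclei (leaving out mitochondrial, ribosomal, haemoglobin and sex-linked genes), called genes of the lists, and 10 genes most like the markers. Doublets were not removed in the main values; removal of the nuclei with the highest Scrublet scores was an alternative, as were edgeR 4.0.16's TMM factors, other rule settings and other count minimums. Some genes that these rules name are not reported here.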

Additional observations from a re-analysis of the deposited data

How the results depend on the processing

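With 1 library per group no replicate could be left out and no paired analysis was possible because each group has 1 sample. In all alternatives run, the member share was lower in the high-fat than in the untreated library and higher in both MTZ libraries than in the high-fat one. The ratio of shares of high-fat over untreated, 0.257, was 0.109 with at least 4 markers, 0.232 with no excluded gene allowed, 0.319 with endothelial-subtype genes not excluded, 0.319 after thinning, 0.0369 for members in the cluster and 0.0709 for the whole cluster. For MTZ-after over high-fat, 1.77, it was 2.44 with 4 markers, 1.49 with subtype genes not excluded, 3.26 after thinning, 2.02 with at least 500 genes and at most 5% mitochondrial UMIs, 4.92 for members in the cluster and 5.33 for the cluster. For MTZ-simultaneous over high-fat, 3.26, it was 7.12 with 4 markers, 2.76 with subtype genes not excluded, 19.01 for members in the cluster and 11.9 for the cluster.

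Counts of called genes, 986, 738 and 895 in the order of the 3 comparisons, were 618, 330 and 592 with no excluded gene allowed, 58, 45 and 38 after thinning (fewer UMIs), and 1825, 1817 and 1763 with at least 10 counts. High-fat over untreated gave 611 in the cluster (6.2%). MTZ-after over high-fat gave 325 (7.995%) with 4 markers, 1161 (10.6%) with subtype genes not excluded and 444 (7.205%) with at least 50 counts. It gave 239 (10.5%) for members in the cluster and 385 (6.76%) in the cluster. With the equal-depth minimum the members' split was 522 higher and 181 lower for high-fat over untreated, against 522 and 464, and 223 and 394 for MTZ-simultaneous over high-fat, against 501 and 394. With at least 4 markers these splits were 177 and 636 (341 calls shared with the 986) and 643 and 211, with no excluded gene allowed 258 and 360 and 356 and 236, and with TMM factors 437 and 578 and 492 and 401. Without the equal-depth minimum the cluster gave 43 higher and 568 lower of 9858 genes, 368 and 17 of 5693, and 846 and 24 of 9764. These calls ask for 30 counts in the higher library. The cluster held 3957167, 337742, 894179 and 2881876 UMIs in the untreated, high-fat, MTZ-after and then MTZ-simultaneous libraries. A call towards the high-fat library thus needed a higher CPM than a call away from it. Genes at least 2-fold higher than other endothelial nuclei in all libraries were 4, but 7 against all other endothelial candidates and 9 for the cluster. The percent of members in the cluster was 56.8, 15.1, 24.3 and 49.0 at Leiden resolution 0.5 in the untreated, high-fat, MTZ-after and then MTZ-simultaneous libraries, and 31.1 in the last at resolution 2. The cause of these changes was not tested. The high-fat cluster held 203 nuclei, which limits the precision of its values.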
